A study of Bos taurus with 2 samples.

Results

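The 14-3-3 proteins are a family of 7 genes in mammals, YWHAB, YWHAE, YWHAG, YWHAH, YWHAQ, YWHAZ and SFN, and all of them were looked up by gene name among the 32429 names of a bovine expression array, where they had 18 of the 51282 non-control probes. RNA came from the testes of 3 crossbred bulls (Holstein Friesian crosses) and of 3 Zebu bulls (Tharparkar breed), all 24 months old. The testes were removed under sedation and local anaesthesia, and no experimental treatment is described. The RNA was pooled in equal amounts within each group. Each pool was labelled with Cy3 and measured on 1 array of the same slide, and the study asked which testicular transcripts differ between the breeds. Because each breed is 1 pool on 1 array, the spread between bulls is unknown, nothing could be tested, and precision is limited by the number of arrays. A level is the log2 processed signal of a probe minus the 75th percentile of its array. A difference is the crossbred level minus the Zebu level, in log2 units.

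14-3-3 proteins are small, acidic adaptors that act as dimers. They bind other proteins at sites that carry a phosphorylated serine or threonine, and by doing so they hold the client in the cytoplasm, shield it from phosphatases or change its activity. Known clients include the RAF kinases, the cell cycle phosphatases of the CDC25 family, the death promoter BAD and the FOXO transcription factors, and in testis and sperm the family is also known for binding the phosphatase PP1 gamma. The Greek letter of each protein gives the gene its last letter (beta, epsilon, gamma, eta, theta and zeta), while SFN, also called stratifin or 14-3-3 sigma, is best known from epithelial cells.

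All 18 probes were well above background on both arrays, by the mark of the scanner software. Each had a single spot. None of the 18 spots was saturated or marked as an outlier, and 0 of them lay in the dark patch of the crossbred array (rows 54 to 99 and columns 35 to 46) or in its smaller bright patch. Around the 18 spots, the median difference of the 18 nearest spots lay between -0.39, at YWHAH probe 1, and 0.23, at SFN probe 1. As a tolerance for a single difference, the SD between replicate spots was used, which was 0.34 over 5960 other probes with several spots. It leaves out labelling, hybridization and the animals. The error that the scanner software gives for each spot amounted to 0.20 for the difference of a bright probe and to 0.32 for that of YWHAG, the dimmest.

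The probes that carry the contrasts are shown here, 5′ to 3′, as the array files give them. Of most probes, a stretch of 30 of the 60 bases is shown. Probes are numbered from the 5′ end of each transcript, those of YWHAZ by their order on the genome build since they were designed on different sequences, and AJ673367 is a probe of another name that lies beside the first probe of YWHAZ.
YWHAZ probe 1, first 30 bases: ggaaaattaacctgccttccaacttttgtc
AJ673367, first 30 bases: gtcatccatgctgtcccacaaatagttttt
YWHAZ probe 2, first 30 bases: tgcatgtgctgtaaaaaatagttaacaggg
YWHAQ probe 1, first 30 bases: gggcagaaaactaagtgcatacagggtgtc
YWHAQ probe 3, last 30 bases: aatgttatgccctatgtaacagcagagtaa
YWHAQ probe 4, last 30 bases: ttatgccctatgtaacacagaataacataa
SFN probe 1, whole: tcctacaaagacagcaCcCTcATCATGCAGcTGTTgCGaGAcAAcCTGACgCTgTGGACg
YWHAE probe 2, whole: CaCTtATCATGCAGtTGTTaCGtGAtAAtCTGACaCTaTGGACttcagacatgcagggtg
SFN probe 2, first 30 bases: atgaaaGTGTGTGTGTGTGTGTGTGcctgt
YWHAG probe 1, whole: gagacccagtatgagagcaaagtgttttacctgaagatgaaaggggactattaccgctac

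The capitals in SFN probe 1 and YWHAE probe 2 mark the 34 bases that are identical in an ungapped overlap of 44 bases, which was the only pair of probes from different members with 60% or more identical bases over at least 30. The capitals in SFN probe 2 mark an alternating run of T and G over 19 bases. Probes 3 and 4 of YWHAQ cover nearly the same place and share 49 identical bases in an overlap of 56, so they are not independent of each other. No run of 20 bases of any of the 18 probes occurred in a probe of another gene name, on either strand, although this says nothing about transcripts that have no probe. Spots of other gene names whose description names a 14-3-3 protein numbered 0.

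Across the family, most differences were small, and the largest was that of a YWHAZ probe. Of the 18 probes, 14 were below 0 and 4 above, where 54.3% of all detected probes were below 0 and 45.3% above, with a median of -0.07. A total of 7 were lower and 3 were higher by more than the replicate spot SD, and the remaining 8 differed by less than it. Differences beyond this SD were common, at 61.9% of all detected probes, and 10 of 18 is not a larger share than that. Read from the brightest probe of each gene, the 7 genes had a median difference of -0.17, beside -0.05 for all 24751 gene names detected in this way. At a log2 difference of 1.5 or more, 1 of the 18 probes was higher in crossbred testis, against 5.61% of the 39804 detected probes of the array, and 0 were lower, against 1.89%. The share of member probes past the threshold in the higher direction, 5.56%, was close to that of the array as a whole. In pooled tissue, fewer cells of a type and less RNA per cell cannot be told apart.

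**Figure D1:**
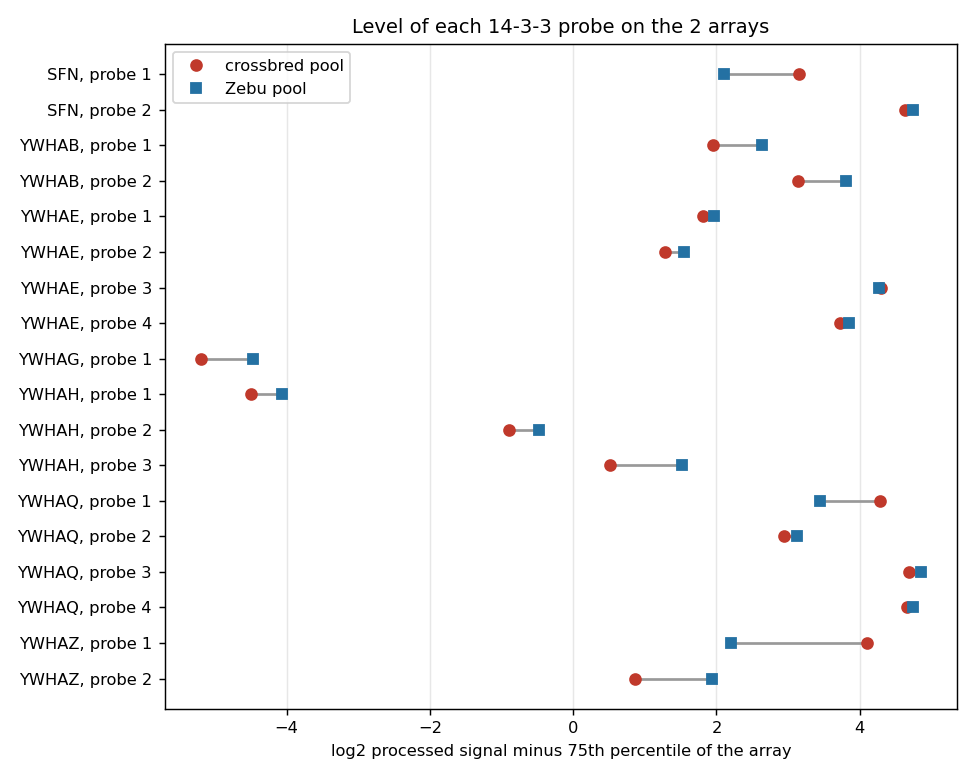
Level of each of the 18 probes (log2 processed signal minus the 75th percentile of the array) on the crossbred array (red circles) and on the Zebu array (blue squares), 1 array per group with no error bars. Levels of different probes are not comparable, and the widest gap between the arrays is that of YWHAZ probe 1, with 4.09 and 2.21.

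YWHAZ encodes 14-3-3 zeta, one of the most widely expressed members and a frequent reference gene in PCR work, and it is the member that the study listed under PI3K-Akt signalling. Its 2 probes went in opposite directions. Probe 1, at chr14:61648126-61648185 on the plus strand of HGSC Btau_3.1, the build of the array annotation, had a processed signal of 20078 in the crossbred pool and 5691 in the Zebu pool. The levels were 4.09 and 2.21, a difference of 1.89 or 3.70-fold, which was 5.50 times the replicate spot SD. Probe 2, at chr14:61648993-61649052, had signals of 2140 and 4708, levels of 0.86 and 1.93, and a difference of -1.07. The crossbred array was thus the brighter one for probe 1 and the dimmer one for probe 2, and each difference was more than 3 times the replicate spot SD.

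The probes of YWHAZ start 867 bases apart on the same strand. Probe 2 is listed under the gene name YWHAZ but was designed on an expressed sequence tag from bovine fat, while probe 1 was designed on the RefSeq transcript. A single probe of another name, AJ673367, lies 4 bases beyond the end of probe 1 at chr14:61648190-61648249, also on the plus strand. Its level was 1.85 in the crossbred pool and 1.03 in the Zebu pool, a difference of 0.81 in the same direction as its neighbour. Along the plus strand the differences were therefore 1.89, 0.81 and -1.07.

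The gap of 2.96 between the probes of YWHAZ was among the widest on the array. Among 4758 gene names with 2 probes well above background on both arrays, the median gap was 0.28, and 0.61% had a gap as wide. Of 8185 names with several such probes, 33 had 1 probe at 1.5 or more and another at -1 or less, which is 0.40%. Across the scalings and background corrections tried, probe 1 stayed between 1.77 and 1.93 and probe 2 between -1.13 and -1.07. Averaged over both probes, YWHAZ differed by 0.41. Of all detected probes, 3.14% had a difference as high as that of probe 1 and 6.07% one as low as that of probe 2.

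**Figure D2:**
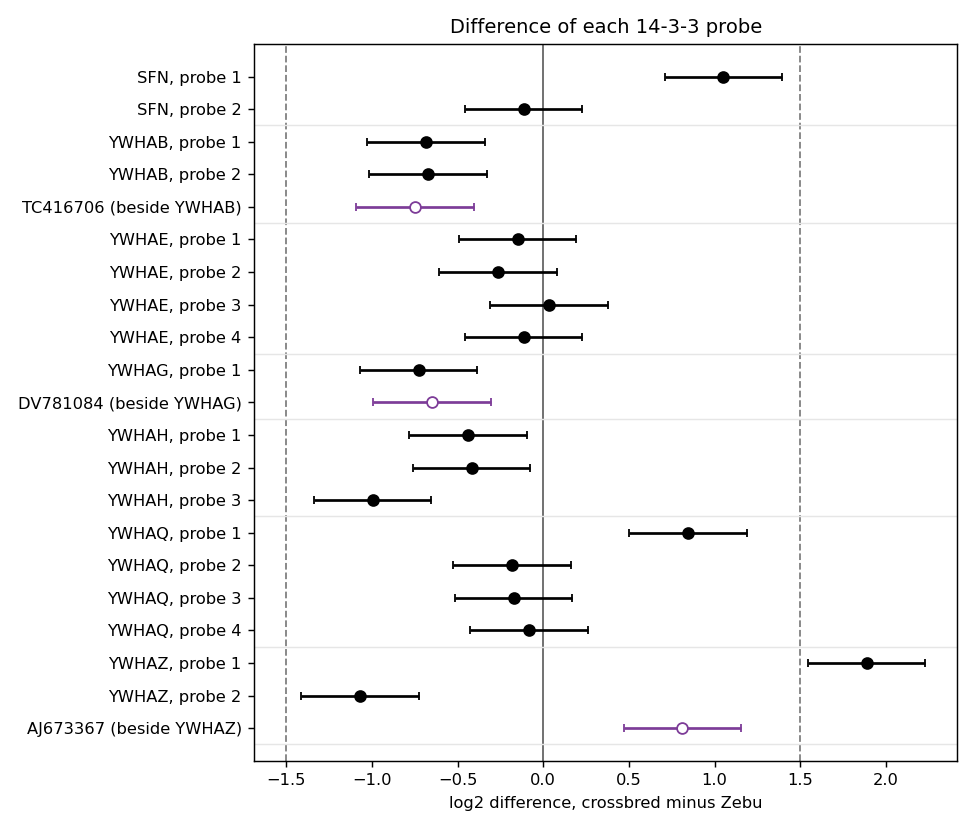
Log2 difference (crossbred minus Zebu) of each of the 18 probes (filled circles) and of 3 probes of other names placed beside a member on the same strand (open circles). Bars are the tolerance from replicate spots of other probes (0.34), dashed lines mark 1.5 and -1.5, and YWHAZ probe 1 at 1.89 is the only probe past a dashed line.

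YWHAQ, which encodes 14-3-3 theta, and SFN also had a 5′ probe that was higher in crossbred testis and further probes that were not. For YWHAQ on chromosome 11, probe 1 at chr11:90667430-90667489 had signals of 22899 in the crossbred pool and 13373 in the Zebu pool, a difference of 0.84. Probe 2, which starts 552 bases further along the transcript, had 9078 and 10791, a difference of -0.18. Probes 3 and 4 had 30298 against 35807 and 29747 against 33027, with differences of -0.17 and -0.08. Probes 2 to 4 thus differed by less than the replicate spot SD, and probe 1 by 2.46 times that SD.

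SFN, on chromosome 2, had signals of 10491 and 5309 for probe 1, at chr2:130573897-130573956 on the minus strand, which is a difference of 1.05. The 18 spots nearest to that probe had a median difference of 0.23. Probe 2, at chr2:130573386-130573445, had 29189 and 33132, a difference of -0.11 that was smaller than the replicate spot SD. The arrays therefore differed 2.07-fold at the first SFN probe and hardly at the second, and the gap of 1.17 between them was reached by 9.16% of gene names with 2 probes. The run of T and G in probe 2 occurs at this length or longer in 7 probes of the whole array. The other 6 were detected too, and their differences lay between -0.20 and 0.27. Whether the run bears on the value of SFN probe 2 was not tested. YWHAE probe 2, shown above beside SFN probe 1, differed by -0.27.

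Because SFN is best known from epithelium, 15 epithelial markers were read beside it. All 15 had a probe that was detected, and the median difference was 0.08, with 9 above 0 and 6 below. None of the 15 was higher by 1.5. PERP, a membrane protein of desmosomes, was 4.19-fold lower as measured, but its crossbred spot was not well above background. After normexp correction the PERP difference was -0.77, short of the threshold. EPCAM, an epithelial adhesion protein that spermatogonia also make, had levels of 4.38 and 3.97. KRT5 had -4.40 and -4.24, and TP63, a factor of basal epithelium, had -4.94 and -5.78. Of the markers of epididymis, CRISP1 and LCN9 had a probe, and neither was well above background on any array.

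YWHAB, which encodes 14-3-3 beta and alpha, was lower in crossbred testis by nearly the same amount at both of its probes. Probe 1, within chr13:74079263-74080435, had signals of 4559 in the crossbred pool and 7677 in the Zebu pool. The array annotation spreads its 60 bases over 1173 positions of the build. Probe 2, 2049 bases further along the transcript, had 10325 and 17266. The differences were -0.68 and -0.67, each about 2 replicate spot SDs, and the array with the lower signal was the crossbred one in both. TC416706, a probe of another name that lies 50 bases beyond probe 2 on the same strand, differed by -0.75.

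YWHAH, which encodes 14-3-3 eta and is located on chromosome 17, was lower in crossbred testis at all 3 probes. The differences were -0.44, -0.42 and -1.0 from the 5′ to the 3′ end. Probe 3, the brightest, had signals of 1683 and 3520, so the Zebu array was 1.99-fold brighter. Probe 2 had 631 and 883, and probe 1 had 51.8 and 73.7 against a local background of 35 and 46. After normexp background correction, probe 1 differed by -0.07, while the values of the others were -0.43 and -0.90. YWHAG, 14-3-3 gamma, had a single probe on chromosome 25. Its signals were 32.0 and 55.6 after background subtraction, where the local background was 31 on both arrays. The difference was -0.73. It was -0.24 after normexp correction. DV781084, 2973 bases beyond it on the same strand and much brighter, differed by -0.65, and by -0.64 after that correction.

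YWHAE, 14-3-3 epsilon, on chromosome 19 and the most conserved member of the family, did not differ between the arrays beyond the replicate spot SD at any of its 4 probes. From 5′ to 3′ the signals on the crossbred and the Zebu array were 4125 and 4799, 2863 and 3608, 23085 and 23662, and 15604 and 17718. The differences were -0.15, -0.27, 0.03 and -0.12. Probe 3 was the only one of the 4 whose sign depended on the scaling, with a range from -0.17 to 0.03.

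**Figure D3:**
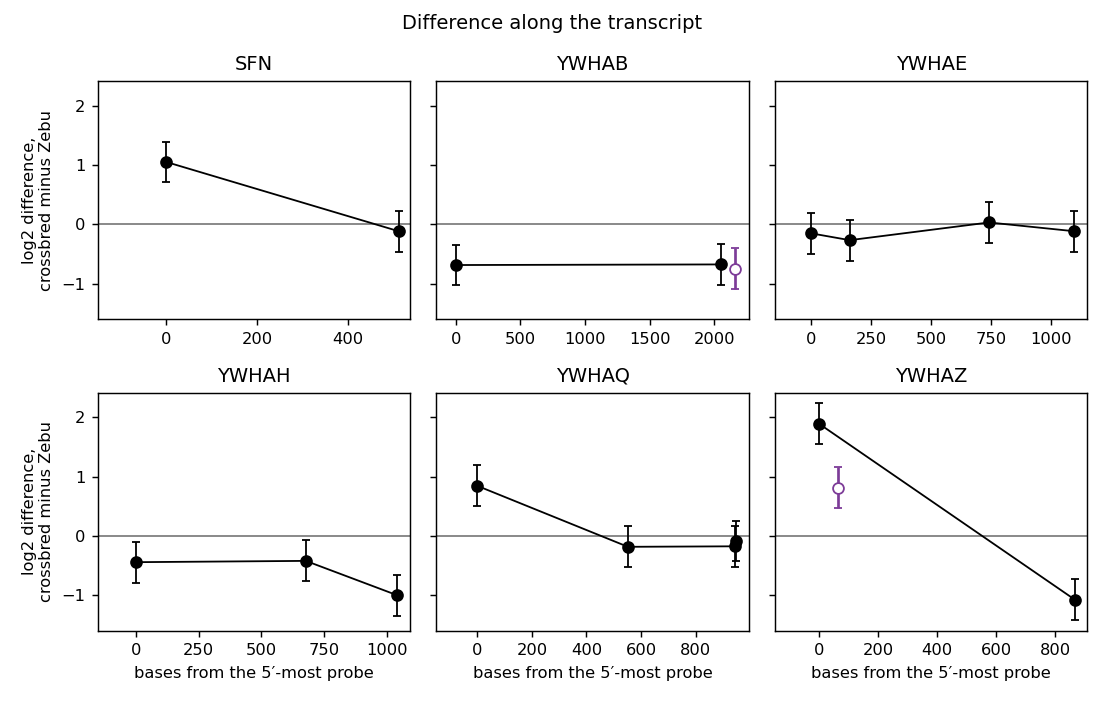
Log2 difference (crossbred minus Zebu) against the distance in bases from the 5′-most probe, for the 6 members with several probes, with bars for the replicate spot SD (0.34). Distances are along the transcript, and for YWHAZ and the 2 probes of other names (open circles) along the genome build; YWHAZ falls from 1.89 to -1.07, while YWHAB and YWHAE stay level.

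Set in order along the transcript, the first probe minus the last was 1.17 for SFN, 0.93 for YWHAQ and 0.56 for YWHAH, and -0.01 and -0.04 for YWHAB and YWHAE. A gap in this direction was common on these arrays. Over 5361 gene names with probes at least 500 bases apart on the same accession, the median of the first minus the last probe was 0.12, and 59.4% were above 0. It was 0.5 or more for 26.9% of the names and -0.5 or less for 11.0%. The gap of YWHAZ is left out here, since its probes lie on different accessions. What sets these gaps was not tested.

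The proteins that 14-3-3 binds were read next, as 48 known clients. These lists were chosen with earlier results of these arrays known. Of the 45 with a probe, 44 were detected, 24 above 0 and 20 below, and their median was 0.02. At 1.5 or more, 5 were higher, beside 6.61% of all detected gene names, and 1 was lower, beside 2.05%. IRS1, the docking protein of the insulin receptor, had levels of 0.03 and -4.40, a difference of 4.43. Its other detected probe, not well above background at every Zebu spot, entered at 0 and so did not repeat the rise. RPTOR, the scaffold of mTOR complex 1, differed by 2.81. SSH1, a phosphatase that activates cofilin, differed by 2.15, and its second probe by 0.44. HDAC4, a class II histone deacetylase that 14-3-3 keeps in the cytoplasm, differed by 1.87 with one probe and by -0.34 with the other. BRAF, a RAF kinase, had levels of -3.35 and -5.12 and a difference of 1.77. Read from the brightest probe, FOXO4, a FOXO transcription factor, was the client that was lower, by -1.59. PI4KB, a phosphatidylinositol 4-kinase, differed by 0.18 at its brightest probe, but its 3 other detected probes lay between -7.00 and -0.19. After normexp correction, IRS1 and RPTOR were still past the threshold, at 3.34 and 2.27, while SSH1 at 1.03, HDAC4 at 1.46, BRAF at 0.85 and FOXO4 at -1.26 were not.

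Among 29 kinases that write 14-3-3 binding sites, 25 had a probe and all 25 were detected, 10 above 0 and 15 below, with a median of -0.46. The median was -0.17 after normexp correction and -0.29 when probes were averaged per gene. None of these kinases was lower by 1.5, and the lowest value was -1.22.

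The 10 genes of the PP1 and GSK3 group, phosphatase subunits and kinases that control sperm motility, were all detected. None passed 1.5, 8 were above 0 and 2 below, and the median was 0.43. PPP1CC, the source of the sperm phosphatase PP1 gamma 2, is given here after its values were seen. It differed by 0.44, and its 3 other probes lay between 0.06 and 0.58. PPP1R2, the PP1 inhibitor 2, had the highest value of the group, 1.47, and PPP1CA and PPP1CB, the alpha and beta catalytic subunits, had -0.81 and -0.62.

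A list of PI3K-Akt signalling genes that holds YWHAZ was chosen by the study on these same arrays, so the direction of its genes is not independent evidence. Read from the brightest probe, 16 of its 21 genes were higher by 1.5 or more, 0 were lower, and the median was 1.95. The shares over all detected gene names were 6.61% higher and 2.05% lower. After normexp correction, 12 of the 21 genes were higher. The largest values were 5.78 for LOC524810, 4.43 for IRS1 (its other detected probe at 0), 3.21 for IFNB3, 3.07 for VTN and 2.81 for RPTOR. These were followed by HGF with 2.57, FASLG with 2.53, TNR with 2.27, GNG12 with 2.07 and GNG13 with 2.06, of which GNG13 was at 1.36 after that correction. GNG12, a G protein gamma subunit, had 2 other probes at 1.96 and 2.18. The probes of YWHAZ had opposite signs, and so had probes of ITGAV, PIK3CD and RELN in this list. ITGAV differed by 1.40, with other probes from -1.11 to 1.62. PIK3CD differed by 1.63 with a probe in the bright patch, and its other probes lay between -0.56 and 0.09. RELN differed by -0.76, with other probes from -0.65 to 2.23.

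YWHAZ also serves as a reference gene, and 17 genes used for that purpose were read as a further background. All 17 were detected and none passed 1.5. The median was -0.21, between -0.89 for PGK1, a glycolytic kinase, and 0.93 for PPIA, cyclophilin A. GAPDH, the glycolytic enzyme that served as the reference in the PCR work of the study, differed by -0.40 and ACTB, beta actin, by -0.36. These are values of the brightest probe, and other probes of the same genes reached further, down to -10.1 for a probe of B2M.

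**Figure D4:**
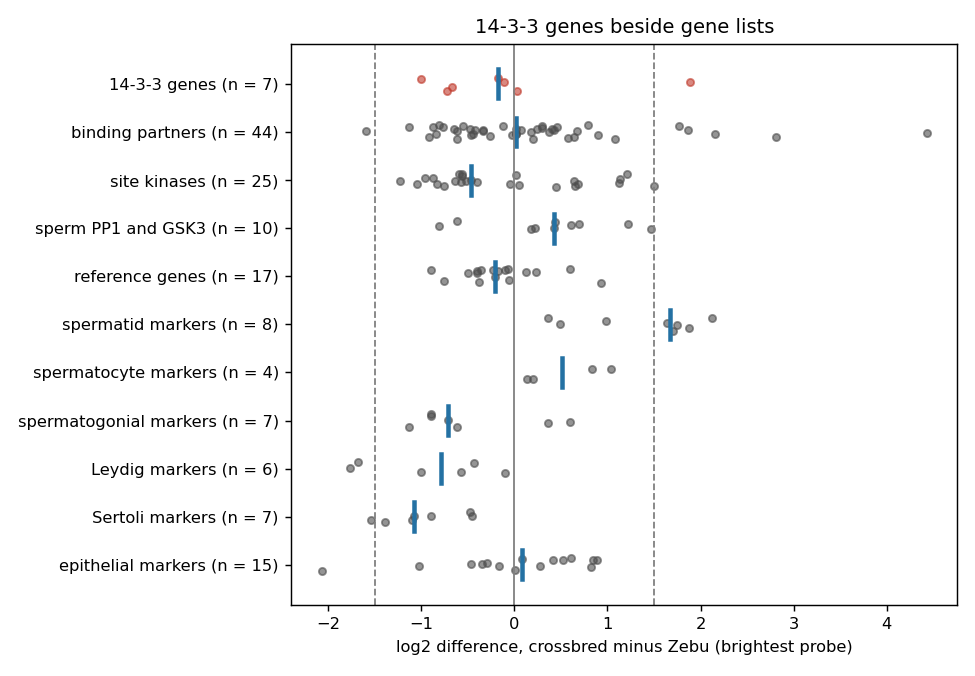
Log2 difference (crossbred minus Zebu) of the brightest probe of each detected gene in the 14-3-3 family (red) and in 10 gene lists (grey), with the median of each list as a blue bar and dashed lines at 1.5 and -1.5. The 14-3-3 median of -0.17 is close to that of the reference genes at -0.21, while spermatid markers have 1.67 and Sertoli cell markers -1.08.

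Markers of the cell types of testis differed between the crossbred and the Zebu pool. All 8 spermatid markers were above 0, 5 of them by 1.5 or more, with a median of 1.67 and a range from 0.36 to 2.13, and these 5 were ODF1 at 2.13, PRM2 at 1.88, TNP2 at 1.74, AKAP4 at 1.71 and ACRV1 at 1.64, genes of the sperm tail, chromatin and acrosome. The 4 spermatocyte markers with a probe had a median of 0.52. All 7 Sertoli cell markers with a probe and all 6 Leydig cell markers were below 0, with medians of -1.08 and -0.79, and the 7 spermatogonial markers had a median of -0.71, with 5 below 0. HSD3B1 and CYP17A1, steroid enzymes of Leydig cells, were lower by 1.5 or more at -1.77 and -1.68, and so was DHH, a Sertoli cell ligand, at -1.53, though not after normexp correction, at -1.22. For comparison, 6.61% of all detected gene names were higher by 1.5 or more and 2.05% lower. Of all detected probes, 45.3% were above 0 and 54.3% below. Markers of each of these cell types were detected in both pools. The part of these shifts in the values of the 14-3-3 genes was not tested.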

How the data were processed

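Testis RNA was pooled by breed and hybridized with Cy3 to 1 array per group. The authors deposited Feature Extraction 11.5.1.1 output, whose processed signal is an intensity, background-subtracted and detrended within the array but not normalized between arrays. The authors also deposited log2 values with a 75th percentile shift. For single-spot probes, 99.99% of these lay within 0.02 of the levels computed here, which settles their scale, centring and direction.

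Control spots and 13 outlier spots were removed, log2 signals of a probe's spots were averaged, and each array was shifted by its 75th percentile. On the crossbred and Zebu arrays, 72.0% and 74.3% of spots were well above background. Detected means well above background in at least 1 pool. Of several probes, the one with the highest mean level stood for the gene. A dim side entered at a bound (its own level or the array's floor, -5.78 and -5.94, whichever was higher). The threshold was a log2 difference of 1.5, or 2.83-fold.

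Named are all members and, per list, up to 10 genes past the threshold by size; other genes of the lists given with values were chosen after those were seen. Members and lists were chosen with earlier results of these data known. Alternatives changed the background correction (normexp in limma 3.58.1, R 4.3.3), shift, normalization, patch spots, detection, threshold and probe choice. Scripts (Python 3.11.15, numpy 2.4.6, pandas 2.3.3) were tested on simulated data. Exon and UTR limits and the real-time PCR were not analysed here. The result of a single gene of the lists is not reported here.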

Additional observations from a re-analysis of the deposited data

How the results depend on the processing

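Leaving out the spots in the patches, a median shift, the other 75th percentile, quantile normalization, the authors' log2 values and the limit to probes well above background on both arrays moved neither the median of the 7 genes nor any of their 7 brightest-probe differences by more than the replicate spot SD, and left the calls at 1 probe higher and 0 lower. With normexp, only YWHAG moved, to -0.24. With the mean of all probes, YWHAH was at -0.62, YWHAZ at 0.41 and SFN at 0.47, and with their median at -0.44, 0.41 and 0.47. In alternatives chosen after seeing the data, the 5′-most probe gave -0.44 for YWHAH, 0.84 for YWHAQ and 1.05 for SFN, and the 3′-most probe gave a family median of -0.67 and reversed YWHAZ to -1.07. The direction of YWHAZ thus rests on the probe that is read; the cause was not tested. At a linear fold of 1.5, 3 member probes were higher and 5 lower, and at a log2 difference of 1, 2 were higher and 1 lower. These thresholds called 19.6% and 10.9% of detected probes higher and 20.9% and 7.39% lower.

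Of the clients, 2 were higher after normexp and 3 with the mean or the median of all probes, and 2 were lower with the mean. With the mean of all probes, 1 reference gene was also lower. At a linear fold of 1.5 the counts higher and lower were 10 and 10 for clients, 7 and 8 for kinases, 4 and 2 for the PP1 and GSK3 group and 2 and 2 for reference genes. At that threshold 19.6% of all detected probes were higher and 20.9% lower. The shares of gene names at that threshold are not given, so these counts are not read as a trait of the lists. The PI3K-Akt list had a median of 1.53 after normexp. No replicate could be left out, and no paired analysis was possible because each group has 1 array. Signals as low as those of YWHAG and YWHAH probe 1 limit what these arrays can show.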
